A study of Mus musculus with 15 samples.

Results

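Purified pancreatic delta cells were compared with purified beta cells by RNA sequencing of mouse islets. The comparison used the 6 delta samples and 4 beta samples of a series of 15, whose other 5 samples were alpha cells that entered the model only to share the estimate of spread. Delta cells were sorted from Sst-Cre/Rosa26EYFP mice, in which Cre driven by the somatostatin promoter switches on a yellow fluorescent protein from the Rosa26 locus, so that a cell is labelled if the promoter was active at any time. Beta cells were sorted from Glu-Venus mice. In that line the proglucagon promoter drives the Venus fluorophore in alpha cells, and beta cells were gated as Venus-negative by scatter and autofluorescence. The background of both lines was C57BL/6, and no sample was given a treatment. Each sample held cells from the islets of several pooled mice, so replicates are pools and not single animals. The mouse line and the reporter differed between the groups and cannot be told apart from the cell type. Expression was given as FPKM, fragment counts divided by the length of the transcript and by how many reads the library mapped, for 38283 genes, and the 13715 genes with a mean above 1 FPKM in delta or beta cells were tested on the log2(FPKM + 1) scale with limma. A positive log2 difference means higher in delta cells. This scale understates the change of genes with low values.

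Beta cells make insulin, co-release islet amyloid polypeptide, take up glucose through a high-capacity transporter and close their ATP-sensitive potassium (KATP) channels when the cytosolic ATP rises. Delta cells share this KATP and calcium channel machinery but make somatostatin, which acts on neighbouring beta and alpha cells to lower insulin and glucagon release. Delta cells reach their neighbours by long processes and are themselves under hormonal and neural control.

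At an adjusted p under 0.05, 2150 genes differed between the cell types, or 15.7% of those tested. Of these, 1709 (12.5% of genes tested) were higher in delta cells and 441 (3.22%) were lower, so that 79.5% of the calls were toward delta cells. In 1731 genes (12.6%) every delta sample lay above every beta sample, and in 372 (2.71%) every delta sample lay below. The split between higher and lower depended on the scaling. The median log2 difference over all genes tested was 0.32 as deposited. Median-ratio size factors, which set the typical gene level between samples, moved the median to 0.02, and 1406 genes (10.3%) were then higher and 1337 (9.75%) lower. All 441 genes lower in delta cells as deposited were also called lower with size factors, and 1351 (9.85% of genes tested) of those higher were again higher. Because size factors moved the typical difference downward, the lower genes were likely to be kept, and this is not an independent check of them. A further scaling, to the summed FPKM left without 7 hormone genes and called hormone-free here, called 1199 genes (8.74%), with 876 higher (6.39%) and 323 lower (2.36%). These sums ran from 2.19e+06 FPKM in beta replicate 3 to 1.53e+07 in beta replicate 2. Nuclear protein-coding genes made up 102875 and 485806 FPKM of them, so this scaling rests mostly on other genes. It also made every value smaller before 1 was added, which further understates the change of genes with low values. Rescaled to the nuclear protein-coding genes without the 7, 2753 genes were called, 1673 higher and 1080 lower. Counts with size factors are therefore given for the gene groups below, and those with the hormone-free scaling where a count moved by more than 1.5 times. Over 37 gene groups the count of higher genes fell that far in 25 and rose that far in 0, and the count of lower genes fell that far in 9 and rose that far in 2. Among the genes named below, the hormone-free scaling alone ended the calls of Gnas, Nr1d1, P2ry6, Tapbp, Mt2, Slc7a2, Wnt4, Clcn5, Ntrk2, Slc2a1, Adora2a, Aldoa, Kcnh2, Pfkl and Robo2 (adjusted p = 0.052 to 0.15).

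**Figure D1:**
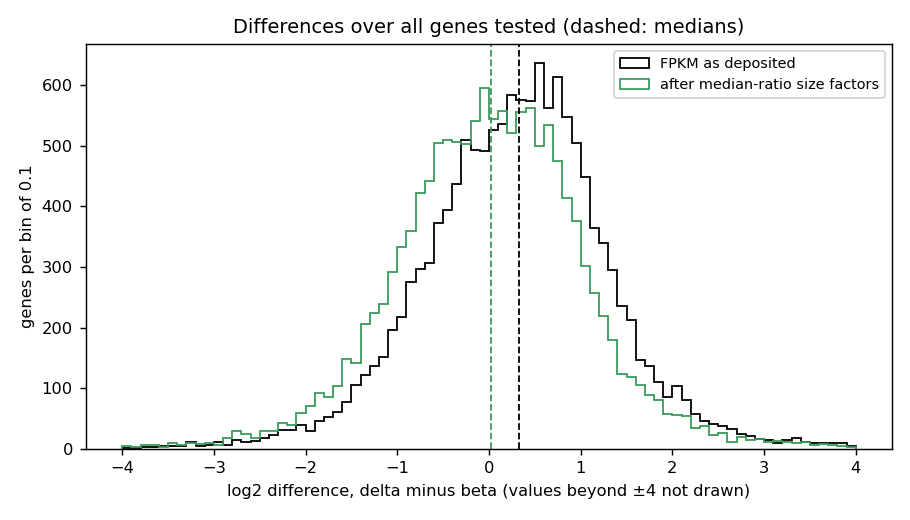
Number of genes (vertical axis) by log2 difference, delta minus beta, in bins of 0.1 (horizontal axis), for the 13715 genes tested. The black line shows FPKM as deposited, with a median of 0.32, and the green line shows the same values after median-ratio size factors, with a median of 0.02.

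The libraries were unequal within both groups. Ribosomal protein genes (82 on the list) summed to 76303 FPKM in beta replicate 2 and 66702 and 65781 in delta replicates 1 and 2, against 8135 to 31390 in the other 7 samples. Within those 7 samples (3 beta, 4 delta), 3013 genes (22.0%) were higher and 269 (1.96%) were lower in delta cells as deposited. With size factors 2565 (18.7%) were called there, 1453 (10.6%) higher and 1112 (8.11%) lower. Against all samples as deposited, the count of higher genes in these 7 rose by more than 1.5 times in 12 of the 37 groups as deposited and fell that far in 12 with size factors. The count of lower genes fell that far in 9 groups and rose in 1 as deposited, and rose that far in 15 and fell in 0 with size factors. Leaving out beta replicate 2 gave 2421 genes higher and 371 lower, leaving out beta replicate 3 gave 1303 and 782, and leaving out beta replicate 4 gave 1262 and 290. Size factors ranged from 0.458 to 1.71 in beta cells and from 0.863 to 1.33 in delta cells. Between 15286 and 17752 genes were above 0 in the beta samples and between 16342 and 18559 in the delta samples. Single-read steps in the FPKM values could be resolved in 4 samples and imply 10.9 M and 10.1 M reads in delta replicates 1 and 2, and 30.5 M and 25.5 M in delta replicates 3 and 4. For the other 6 samples no depth could be read, so a value of 0 is reported only as listed at 0.

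The promoters of 4 genes that part the groups are shown first, as the 250 bases before the start of transcription, from RefSeq on GRCm38.p6. They belong to the somatostatin gene Sst and the pancreatic polypeptide gene Ppy, which were high in delta cells, and to Ins1 and Ucn3, which were high in beta cells. The lines lie at chr16:23890845-23891094 (minus strand), chr11:102101320-102101569 (minus), chr19:52264047-52264296 (plus) and chr13:3945350-3945599 (minus). Capitals mark the palindromic cyclic AMP response element TGACGTCA, the TATA box TATAAA and the insulin E box GCCATCTG, searched on both strands.
Sst: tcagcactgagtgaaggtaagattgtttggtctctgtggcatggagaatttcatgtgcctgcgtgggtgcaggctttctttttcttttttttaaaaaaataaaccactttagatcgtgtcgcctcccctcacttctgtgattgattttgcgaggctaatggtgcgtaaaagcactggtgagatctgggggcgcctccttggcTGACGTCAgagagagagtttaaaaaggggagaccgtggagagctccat
Ppy: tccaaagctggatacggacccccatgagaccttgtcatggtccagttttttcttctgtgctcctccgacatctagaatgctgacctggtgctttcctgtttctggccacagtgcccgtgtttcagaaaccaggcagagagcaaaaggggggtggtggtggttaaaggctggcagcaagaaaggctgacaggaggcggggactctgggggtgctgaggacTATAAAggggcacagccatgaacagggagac
Ins1: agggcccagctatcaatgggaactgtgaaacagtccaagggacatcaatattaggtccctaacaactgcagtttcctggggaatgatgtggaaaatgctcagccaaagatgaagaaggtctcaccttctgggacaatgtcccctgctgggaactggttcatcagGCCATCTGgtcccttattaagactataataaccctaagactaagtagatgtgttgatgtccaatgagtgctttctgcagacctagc
Ucn3: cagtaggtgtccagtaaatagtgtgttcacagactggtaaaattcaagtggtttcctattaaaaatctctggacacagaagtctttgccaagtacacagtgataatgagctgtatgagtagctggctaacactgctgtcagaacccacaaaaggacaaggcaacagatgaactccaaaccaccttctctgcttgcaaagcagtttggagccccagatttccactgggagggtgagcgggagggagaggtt
The cyclic AMP response element lies 48 to 41 bases before the start of Sst, the element through which this promoter is known to respond to cyclic AMP. The TATA box lies 31 to 26 bases before the start of Ppy, and the E box, a binding site of basic helix-loop-helix factors in insulin promoters, lies 86 to 79 bases before the start of Ins1. No match to these letters is in the Ucn3 window. Among 32817 windows of the same kind and length, 1.55% held the response element, 1.11% the E box and 12.4% the TATA box. Of the 18 genes named below for the largest differences, 14 had a window, and the response element was in 1 of them (Sst), the E box in 1 (Ins1) and the TATA box in 3 (Ppy, Rbp4 and Tspan12).

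The hormone genes were examined as a check of the labels. Here and below, values in FPKM with ± are the mean and SD over the 4 beta or 6 delta samples, and log2 differences are those of mean log2(FPKM + 1). Sst (ENSMUSG00000004366) was at 89.8, 461, 37.9 and 71.2 FPKM in beta replicates 1 to 4. Delta samples held Sst at 101492 to 266276 FPKM, with a median of 122411 (log2 difference 10.49 ± 0.59 (SE), adjusted p = 2.4e-08). Every delta sample was above every beta sample. Ins1 (ENSMUSG00000035804) was at 48702, 109599, 136984 and 26229.6 FPKM in beta replicates 1 to 4. Delta samples held Ins1 at 1049 to 2365 FPKM, with a median of 1778 (log2 difference -5.37 ± 0.51 (SE), adjusted p = 3.2e-06). Ins2 (ENSMUSG00000000215) was at 121664, 329181, 638871 and 91248 FPKM in beta replicates 1 to 4. Delta samples held Ins2 at 3803 to 7189.9 FPKM, with a median of 5490.1 (log2 difference -5.28 ± 0.53 (SE), adjusted p = 5.6e-06). Both insulin genes were lower in every delta sample than in any beta sample. Ins1 and Ins2 are near-identical paralogs, and single 50 nt reads can be shared between them. In sorted bulk samples, a few cells of another type and a low level in every cell cannot be told apart.

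**Figure D2:**
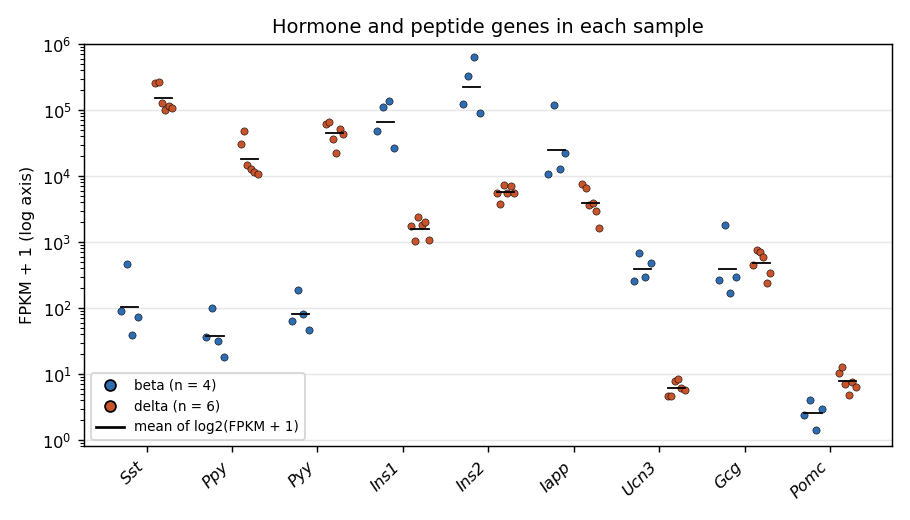
FPKM + 1 on a log axis for 9 hormone and peptide genes in each sample, with beta samples in blue (n = 4), delta samples in orange (n = 6) and bars at the mean of log2(FPKM + 1). Sst, Ppy, Pyy and Pomc are higher in every delta sample, Ins1, Ins2, Iapp and Ucn3 are lower, and Gcg overlaps.

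Of 14 hormone and peptide genes tested, 5 were higher and 4 lower in delta cells (4 and 4 with size factors). Beside Sst, both pancreatic polypeptide family genes Pyy and Ppy were higher in delta cells. Pyy, which encodes peptide YY, was at 63.4, 185, 80.2 and 46.0 FPKM in beta replicates 1 to 4. Delta samples held Pyy at 22689 to 65372 FPKM, with a median of 47474 (log2 difference 9.07 ± 0.45 (SE), adjusted p = 7.6e-09). Ppy was at 34.9, 98.1, 30.3 and 16.9 FPKM in beta replicates 1 to 4. Delta samples held Ppy at 10857 to 48599.6 FPKM, with a median of 13715 (log2 difference 8.91 ± 0.55 (SE), adjusted p = 6.9e-08). Scaled by transcript length, the mean levels in delta cells were 46749 FPKM for Pyy and 21473 FPKM for Ppy, against 163268 FPKM for Sst. The alpha samples (n = 5) also held Pyy at 37759 ± 6973 FPKM and Ppy at 30424 ± 9881 FPKM. Pomc, the precursor of melanocortins and beta-endorphin, was low in both cell types but higher in delta cells, at 1.73 ± 1.11 FPKM in beta cells and 7.20 ± 2.995 FPKM in delta cells (log2 difference 1.61, adjusted p = 0.0058). Among the genes lower in delta cells, the peptide Ucn3, a marker of mature mouse beta cells that acts on delta cells, was at 256, 690.2, 292 and 477 FPKM in beta replicates 1 to 4. Delta samples held Ucn3 at 3.58 to 7.57 FPKM, with a median of 4.99 (log2 difference -6.03 ± 0.44 (SE), adjusted p = 1.5e-07). Iapp, the amyloid polypeptide co-released with insulin, was at 40951 ± 51612 FPKM in beta cells and 4352 ± 2259 FPKM in delta cells (log2 difference -2.67, adjusted p = 0.016), and every delta sample was below every beta sample. The proglucagon gene Gcg was at 636 ± 789.7 FPKM in beta cells and 515 ± 210.1 FPKM in delta cells and did not differ beyond its spread (log2 difference 0.28, 95% interval -0.97 to 1.53).

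Prohormones are cut by convertases and packed with granins. Of 15 such genes tested, 2 were higher (1 without beta replicate 4) and 1 was lower in delta cells (1 and 2 with size factors, or 0 and 1 with the hormone-free scaling). Granins and processing enzymes numbered 4 higher and 1 lower within the 7 samples with lower ribosomal protein FPKM as deposited, and 3 and 3 there with size factors. Pcsk1, the prohormone convertase that makes the early cuts of proinsulin, was at 56.5, 263, 79.7 and 155 FPKM in beta replicates 1 to 4. Delta samples held Pcsk1 at 12.7 to 21.4 FPKM, with a median of 15.1 (log2 difference -2.79 ± 0.41 (SE), adjusted p = 2.2e-04), and the delta samples lay below all beta samples. Its partner Pcsk2 was at 215 ± 126 FPKM in beta cells and 268 ± 78.7 FPKM in delta cells (log2 difference 0.44, 95% interval -0.57 to 1.45), which did not pass the test.

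The genes with the largest differences were the islet hormones and a set of transport, metabolic and membrane genes. The 10 largest differences toward delta cells among protein-coding genes without overlap between samples lay between 10.49 and 6.02 on the log2 scale, and Sst, Pyy, Ppy, Rbp4, Cd24a, Tspan12, Gpx3 and Hhex were among them. Rbp4, the plasma carrier of retinol, was at 1.23, 11.9, 0.706 and 5.01 FPKM in beta replicates 1 to 4. Delta samples held Rbp4 at 728 to 3317 FPKM, with a median of 1148 (log2 difference 8.22 ± 0.61 (SE), adjusted p = 1.9e-07). Cd24a, a glycosylated surface protein, was at 2.22, 6.46, 1.82 and 7.09 FPKM in beta replicates 1 to 4. Delta samples held Cd24a at 297 to 1132 FPKM, with a median of 743 (log2 difference 7.19 ± 0.49 (SE), adjusted p = 9.0e-08). The tetraspanin Tspan12, a co-receptor in norrin and beta-catenin signalling, was at 0.297 ± 0.263 FPKM in beta cells and 154 ± 55.5 FPKM in delta cells (log2 difference 6.85, adjusted p = 9.0e-08). Gpx3, the secreted glutathione peroxidase, was at 7.75 ± 7.34 FPKM in beta cells and 762 ± 201 FPKM in delta cells (log2 difference 6.70, adjusted p = 7.6e-07).

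The 10 largest differences toward beta cells were in G6pc2, Prlr, Ero1lb, Slc30a8, Ucn3, Slc2a2, Spc25, Papss2, Cox6a2 and Ins1, between -7.10 and -5.37. G6pc2, the islet glucose-6-phosphatase, was at 596, 5341, 658 and 1169.7 FPKM in beta replicates 1 to 4. Delta samples held G6pc2 at 2.71 to 15.2 FPKM, with a median of 8.75 (log2 difference -7.10 ± 0.65 (SE), adjusted p = 1.9e-06). Prlr, the prolactin receptor through which beta cells expand in pregnancy, was at 207, 492, 165 and 264 FPKM in beta replicates 1 to 4. Delta samples held Prlr at 0.294 to 5.56 FPKM, with a median of 1.496 (log2 difference -6.68 ± 0.81 (SE), adjusted p = 3.6e-05). Spc25, a kinetochore subunit, was at 295 ± 333 FPKM in beta cells and 2.201 ± 1.75 FPKM in delta cells (log2 difference -5.92, adjusted p = 1.6e-05). Papss2, which makes the sulphate donor of sulphotransferases, was at 236 ± 123 FPKM in beta cells and 4.10 ± 2.62 FPKM in delta cells (log2 difference -5.57, adjusted p = 1.8e-06). These 18 genes were called the same way in each of the 22 alternatives run.

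**Figure D3:**
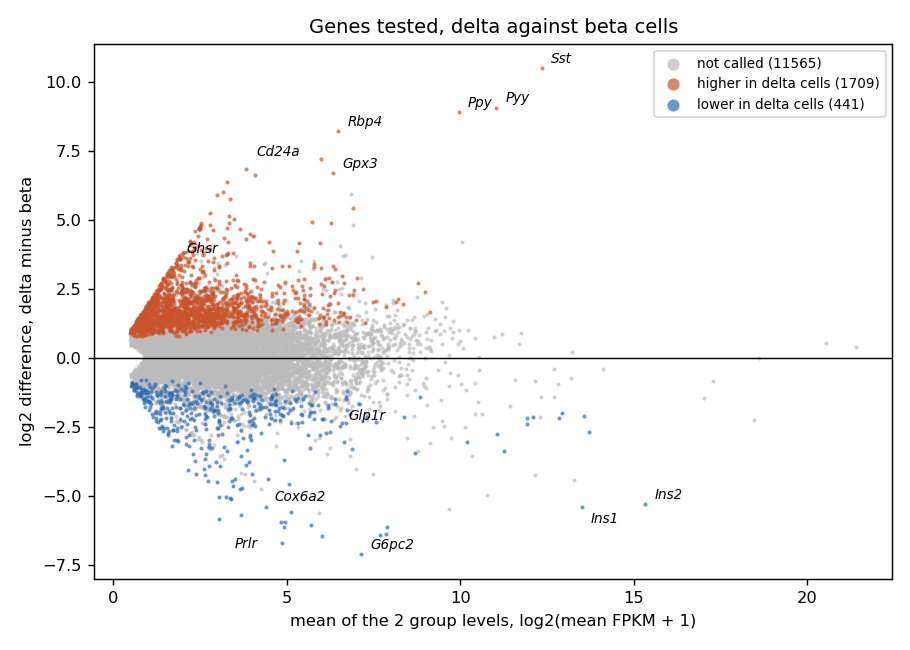
Log2 difference, delta minus beta (vertical axis), against the mean of the group levels as log2(mean FPKM + 1) (horizontal axis) for the 13715 genes tested. The 1709 genes higher in delta cells are orange, the 441 lower are blue and the 11565 not called are grey. Sst, Pyy and Ppy lie highest, and G6pc2 and Prlr lowest.

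The transcription factors that specify islet cells were split. Of 37 tested, 8 were higher and 4 lower in delta cells (7 and 4 with size factors, or 5 and 3 with the hormone-free scaling). Hhex, the homeobox factor required for delta cell differentiation, was at 0.0845, 0.316, 0.00654 and 0.0458 FPKM in beta replicates 1 to 4. Delta samples held Hhex at 42.1 to 93.2 FPKM, with a median of 74.7 (log2 difference 6.02 ± 0.34 (SE), adjusted p = 2.4e-08). Neurog3, the endocrine progenitor factor, was at 0.0985, 0, 0.0185 and 0.00928 FPKM in beta replicates 1 to 4. Delta samples held Neurog3 at 18.4 to 52.5 FPKM, with a median of 28.0 (log2 difference 4.91 ± 0.31 (SE), adjusted p = 7.4e-08). Its exons overlap those of 2010107G23Rik, and reads of overlapping genes cannot be separated without strand. Etv1, an ETS factor, was at 7.06 ± 3.72 FPKM in beta cells and 69.0 ± 14.4 FPKM in delta cells (log2 difference 3.28, adjusted p = 3.9e-05), and Foxa3, a forkhead factor of endoderm, at 2.001 ± 1.79 FPKM in beta cells and 11.5 ± 2.01 FPKM in delta cells (log2 difference 2.26, adjusted p = 9.6e-04). Among the 4 lower in delta cells were Nkx6-1, Mafa and Mnx1, factors known for their part in beta cells, and 25 of the list were not called. Nkx6-1 was at 32.4, 95.2, 26.8 and 51.2 FPKM in beta replicates 1 to 4. Delta samples held Nkx6-1 at 3.44 to 15.5 FPKM, with a median of 7.91 (log2 difference -2.38 ± 0.46 (SE), adjusted p = 0.0021). Mafa, an activator of the insulin promoter, was at 3.12 ± 2.52 FPKM in beta cells and 0.127 ± 0.138 FPKM in delta cells (log2 difference -1.67, adjusted p = 0.0032), and Mnx1 at 1.61 ± 0.987 FPKM in beta cells and 0.0145 ± 0.0238 FPKM in delta cells (log2 difference -1.28, adjusted p = 0.0041). In all 3, the delta samples lay below the beta samples. Within the 7 samples with lower ribosomal protein FPKM, 19 factors of the list were higher and 3 lower as deposited, and 8 and 6 with size factors.

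Glucose enters islet cells through GLUT transporters, and the KATP channel couples its metabolism to the membrane potential. Of 10 genes of this list tested, 5 were higher (3 without beta replicate 4) and 2 lower in delta cells (3 and 2 with size factors, or 2 and 2 with the hormone-free scaling). Slc2a2, the high-capacity transporter GLUT2, was at 128, 416, 126 and 273 FPKM in beta replicates 1 to 4. Delta samples held Slc2a2 at 1.38 to 3.95 FPKM, with a median of 2.33 (log2 difference -5.93 ± 0.39 (SE), adjusted p = 9.0e-08). Slc2a3, the high-affinity transporter GLUT3, was at 0.0346, 0.0243, 0.0220 and 0.0492 FPKM in beta replicates 1 to 4. Delta samples held Slc2a3 at 6.10 to 14.6 FPKM, with a median of 7.48 (log2 difference 3.14 ± 0.37 (SE), adjusted p = 3.0e-05). Slc2a1, which encodes GLUT1, was at 2.08 ± 0.949 FPKM in beta cells and 7.48 ± 0.714 FPKM in delta cells (log2 difference 1.504, adjusted p = 0.0014). G6pc2, given above, was 1 of the pair of genes lower in delta cells. The KATP channel subunits gave no stable difference. Kcnj11, the pore, was at 10.2 ± 2.06 FPKM in beta cells and 28.2 ± 5.26 FPKM in delta cells (log2 difference 1.38, adjusted p = 0.019) but was not called with size factors (log2 difference 0.96, adjusted p = 0.15). That call was also lost without beta replicate 4, with size factors in the 7 samples with lower ribosomal protein FPKM and with quantile normalization, the hormone-free scaling and rescaling to other nuclear protein-coding genes (adjusted p = 0.051 to 0.42). Abcc8, the sulphonylurea receptor, was at 35.5 ± 18.0 FPKM in beta cells and 95.6 ± 32.5 FPKM in delta cells (log2 difference 1.43, adjusted p = 0.063).

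Of 58 genes of glycolysis, the TCA cycle and pyruvate cycling, 11 were higher (7 without beta replicate 1) and 2 lower (4 without beta replicate 3) in delta cells. With size factors the counts were 8 and 6, or 2 and 2 with the hormone-free scaling. These metabolic genes numbered 16 higher and 1 lower within the 7 samples with lower ribosomal protein FPKM as deposited, and 5 and 5 there with size factors. Fbp1, the gluconeogenic fructose bisphosphatase, was at 0.0616, 0.230, 0.0651 and 0.0660 FPKM in beta replicates 1 to 4. Delta samples held Fbp1 at 8.14 to 31.9 FPKM, with a median of 22.0 (log2 difference 4.17 ± 0.42 (SE), adjusted p = 5.8e-06). Aldoa, the aldolase of glycolysis, was at 55.3 ± 27.7 FPKM in beta cells and 152 ± 36.4 FPKM in delta cells (log2 difference 1.52, adjusted p = 0.010), and Pfkl, the liver-type phosphofructokinase, at 1.75 ± 0.902 FPKM in beta cells and 7.08 ± 1.002 FPKM in delta cells (log2 difference 1.60, adjusted p = 0.0056). Pfkfb2, which sets the level of the phosphofructokinase activator fructose 2,6-bisphosphate, was at 24.0, 49.7, 13.5 and 41.6 FPKM in beta replicates 1 to 4. Delta samples held Pfkfb2 at 2.95 to 6.38 FPKM, with a median of 3.51 (log2 difference -2.58 ± 0.38 (SE), adjusted p = 2.5e-04). The delta samples lay below the beta samples.

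Genes that mature beta cells keep at low levels, the so-called disallowed genes, gave 8 calls, and 7 of these were toward delta cells, as were 79.5% of the calls over all genes. Of 15 above the threshold, 7 were higher and 1 was lower (0 without beta replicates 2 or 4 or delta replicates 1, 2, 3, 4 or 6), or 6 and 1 with size factors, or 3 and 0 with the hormone-free scaling. Within the 7 samples with lower ribosomal protein FPKM the counts were 12 and 0 as deposited and 6 and 1 with size factors. Acot7, a long-chain acyl-CoA thioesterase, was listed at 0 FPKM in all 4 beta samples. Delta samples held Acot7 at 1.80 to 23.9 FPKM, with a median of 6.18 (log2 difference 2.99 ± 0.45 (SE), adjusted p = 3.0e-04). Tst, the mitochondrial enzyme rhodanese, was at 0.0213, 0, 0 and 0.0761 FPKM in beta replicates 1 to 4. Delta samples held Tst at 4.44 to 11.3 FPKM, with a median of 6.72 (log2 difference 3.002 ± 0.38 (SE), adjusted p = 4.9e-05). Catalase, Cat, was at 1.01 ± 0.903 FPKM in beta cells and 5.32 ± 0.832 FPKM in delta cells (log2 difference 1.74, adjusted p = 5.4e-04). Ldha, the lactate dehydrogenase subunit after which the group is often introduced, was low in both, at 0.0665 ± 0.0824 FPKM in beta cells and 1.02 ± 0.402 FPKM in delta cells (log2 difference 0.90, adjusted p = 0.026), a call lost with quantile normalization, with the hormone-free scaling, with only beta and delta samples in the fit and with size factors in the 7 samples with lower ribosomal protein FPKM (adjusted p = 0.052 to 0.18).

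Of the transcripts of the mitochondrial genome, the calls were all toward beta cells. Of 12 tested, none was higher and 8 were lower (5 without beta replicate 4), and the median log2 difference was -2.13 against 0.32 over all genes. With size factors 11 were lower, and within the 7 samples with lower ribosomal protein FPKM 4 were as deposited and 11 with size factors. Their summed FPKM ranged from 39777 to 212922 in beta samples and from 7019 to 30294 in delta samples, with no overlap. The complex I subunit mt-Nd2 was at 668, 2447, 738 and 1719.5 FPKM in beta replicates 1 to 4. Delta samples held mt-Nd2 at 42.9 to 159.6 FPKM, with a median of 140.2 (log2 difference -3.41 ± 0.53 (SE), adjusted p = 3.7e-04). Its neighbour in that complex mt-Nd4 was at 8129.8 ± 5743 FPKM in beta cells and 735 ± 374 FPKM in delta cells (log2 difference -3.34, adjusted p = 0.0020). Of 80 nuclear-encoded respiratory chain subunits, whose median log2 difference was 0.56 (0.18 with size factors), 5 were higher (3 without beta replicates 3 or 4, 19 without beta replicate 2) and 2 lower (1 without beta replicates 2 or 4 or delta replicate 1), or 4 and 4 with size factors, or 7 and 1 with the hormone-free scaling. Within those 7 samples the counts were 14 and 1 as deposited and 4 and 5 with size factors. Cox6a2, the striated-muscle form of a cytochrome c oxidase subunit, was at 75.0, 342, 97.5 and 75.5 FPKM in beta replicates 1 to 4. Delta samples held Cox6a2 at 0.768 to 2.99 FPKM, with a median of 2.18 (log2 difference -5.38 ± 0.50 (SE), adjusted p = 2.4e-06). About 10.3% of its exonic length overlaps Itgad, which was also lower in delta cells (log2 difference -2.25, adjusted p = 5.3e-05), and reads in the overlap cannot be assigned. Ndufa13, a complex I subunit whose exons overlap Tssk6, was at 19.2 ± 16.9 FPKM in beta cells and 79.2 ± 33.5 FPKM in delta cells (log2 difference 2.19, adjusted p = 0.0051).

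In the endoplasmic reticulum, 8 of 55 genes of folding and the unfolded protein response were lower in delta cells and 2 were higher, with 19 and 2 after size factors. Within the 7 samples with lower ribosomal protein FPKM, 1 was lower and 7 were higher as deposited, with a list median of -0.16 against 0.50 over all genes, and 19 were lower and 3 higher with size factors. With the hormone-free scaling 3 were lower and 2 higher. The count of lower genes was 2 without beta replicate 4, 4 without beta replicate 2 or delta replicate 6, 5 without delta replicate 1, and that of higher genes was 0 without beta replicates 1 or 4, 1 without beta replicate 3 or delta replicate 1. Ero1lb, the oxidase that drives disulphide formation in proinsulin, was at 316, 1260.4, 242 and 695 FPKM in beta replicates 1 to 4. Delta samples held Ero1lb at 1.40 to 11.9 FPKM, with a median of 5.29 (log2 difference -6.43 ± 0.52 (SE), adjusted p = 4.7e-07). The chaperone Hspa5 was at 785 ± 418 FPKM in beta cells and 269 ± 62.4 FPKM in delta cells (log2 difference -1.40, adjusted p = 0.028). It was not called without beta replicate 4, within the 7 samples with lower ribosomal protein FPKM, with only beta and delta samples in the fit or with the hormone-free scaling (adjusted p = 0.062 to 0.23).

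Zinc is packed with insulin into crystals by the transporter ZnT8. Its gene Slc30a8 was at 166, 568, 97.7 and 276 FPKM in beta replicates 1 to 4. Delta samples held Slc30a8 at 0.922 to 3.14 FPKM, with a median of 2.58 (log2 difference -6.12 ± 0.51 (SE), adjusted p = 7.1e-07). The metallothionein Mt2, a zinc buffer, was at 253 ± 188 FPKM in beta cells and 41.7 ± 7.15 FPKM in delta cells (log2 difference -2.34, adjusted p = 0.0049), whereas the importers Slc39a11 and Slc39a1 were higher in delta cells, at 0.297 ± 0.151 FPKM in beta cells and 6.56 ± 2.83 FPKM in delta cells (log2 difference 2.47, adjusted p = 6.1e-05) and at 2.37 ± 1.96 FPKM in beta cells and 8.78 ± 2.45 FPKM in delta cells (log2 difference 1.65, adjusted p = 0.0055). In all, 3 of 18 zinc genes were higher and 2 lower (3 and 5 with size factors, or 2 and 1 with the hormone-free scaling). Zinc genes numbered 5 higher and 2 lower within the 7 samples with lower ribosomal protein FPKM as deposited, and 2 and 3 there with size factors. Of 26 amino acid transporters, 6 were higher and 3 lower in delta cells (4 and 6 with size factors). Amino acid transporters numbered 11 higher and 3 lower within the 7 samples with lower ribosomal protein FPKM as deposited, and 3 and 5 there with size factors. Slc7a2, a cationic amino acid transporter, was at 24.2, 51.8, 26.0 and 63.3 FPKM in beta replicates 1 to 4. Delta samples held Slc7a2 at 3.11 to 7.33 FPKM, with a median of 4.08 (log2 difference -2.84 ± 0.43 (SE), adjusted p = 2.9e-04). Slc38a4, a neutral amino acid transporter, was at 63.6 ± 39.7 FPKM in beta cells and 11.3 ± 3.68 FPKM in delta cells (log2 difference -2.24, adjusted p = 0.0026), and Slc38a11, of the same family, at 0.0820 ± 0.0801 FPKM in beta cells and 4.35 ± 1.15 FPKM in delta cells (log2 difference 2.28, adjusted p = 9.0e-04).

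Voltage-gated channels carry the action potentials of both cell types. Of 13 calcium channel subunits, 5 were higher and 0 lower (1 without beta replicate 3), or 5 and 1 with size factors, or 3 and 0 with the hormone-free scaling. Cacna1h, the pore of the low-threshold T-type channel Cav3.2, was at 0.0305, 0.106, 0.0306 and 0 FPKM in beta replicates 1 to 4. Delta samples held Cacna1h at 11.3 to 25.8 FPKM, with a median of 20.2 (log2 difference 4.26 ± 0.27 (SE), adjusted p = 7.4e-08). Cacna2d2, an auxiliary alpha2delta subunit, was at 0.0432, 0.415, 0.0533 and 0.827 FPKM in beta replicates 1 to 4. Delta samples held Cacna2d2 at 4.54 to 39.3 FPKM, with a median of 29.5 (log2 difference 3.90 ± 0.56 (SE), adjusted p = 1.8e-04). The delta samples split here, with replicates 1 and 2 lowest, but none overlapped the beta samples. The L-type pore Cacna1d, which carries much of the calcium current of beta cells, was at 5.90 ± 1.26 FPKM in beta cells and 3.59 ± 1.43 FPKM in delta cells (log2 difference -0.63, 95% interval -1.39 to 0.12) and the P/Q-type pore Cacna1a at 5.69 ± 3.35 FPKM in beta cells and 7.74 ± 3.20 FPKM in delta cells (log2 difference 0.43, 95% interval -0.55 to 1.41), and neither passed the test. Of 4 sodium channel subunits above the threshold, 2 were higher (1 without beta replicates 1, 3 or 4 or delta replicates 3, 4 or 5, or with the hormone-free scaling) and none lower, also with size factors. Scn3b, a beta subunit, was at 0.230 ± 0.263 FPKM in beta cells and 10.3 ± 5.87 FPKM in delta cells (log2 difference 3.02, adjusted p = 1.0e-04). The pore Scn9a was at 7.95 ± 4.10 FPKM in beta cells and 9.99 ± 4.53 FPKM in delta cells (log2 difference 0.36, 95% interval -0.61 to 1.33).

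Among potassium channels, 17 of 38 were higher and 4 lower in delta cells (14 and 6 with size factors, or 11 and 2 with the hormone-free scaling). The acid-sensitive leak channel Kcnk3, TASK-1, was at 0.127, 0.170, 0.0858 and 0.0516 FPKM in beta replicates 1 to 4. Delta samples held Kcnk3 at 7.83 to 12.4 FPKM, with a median of 10.02 (log2 difference 3.30 ± 0.26 (SE), adjusted p = 2.8e-07). Kcnk16, the leak channel TALK-1 of islets, was high in both cell types, at 30.7 ± 17.5 FPKM in beta cells and 195 ± 38.8 FPKM in delta cells (log2 difference 2.74, adjusted p = 1.7e-04), a call lost with size factors in the 7 samples with lower ribosomal protein FPKM (adjusted p = 0.079). Kcna5, the delayed rectifier Kv1.5, was at 0.00537 ± 0.00708 FPKM in beta cells and 8.04 ± 3.73 FPKM in delta cells (log2 difference 3.05, adjusted p = 3.7e-05), and Kcnh2, the ERG1 channel, at 5.98 ± 2.27 FPKM in beta cells and 28.2 ± 7.27 FPKM in delta cells (log2 difference 2.07, adjusted p = 0.0034). Kcng3, a silent modifier of Kv2 channels, was lower in delta cells, at 3.69 ± 1.74 FPKM in beta cells and 0.210 ± 0.215 FPKM in delta cells (log2 difference -1.90, adjusted p = 1.8e-04). Of 10 TRP channels, 2 were higher and 2 lower (1 without beta replicates 1 or 4 or delta replicates 1, 2, 3, 4 or 6), or 2 and 3 with size factors, or 1 and 1 with the hormone-free scaling. TRP channels numbered 3 higher and 1 lower within the 7 samples with lower ribosomal protein FPKM as deposited, and 2 and 3 there with size factors. Trpm5, a calcium-activated cation channel that shapes glucose-induced spiking in beta cells, was at 45.4, 135, 19.1 and 32.4 FPKM in beta replicates 1 to 4. Delta samples held Trpm5 at 0.937 to 1.53 FPKM, with a median of 1.16 (log2 difference -4.38 ± 0.42 (SE), adjusted p = 3.1e-06). Trpa1, the irritant receptor, was at 0.0464 ± 0.0697 FPKM in beta cells and 4.72 ± 1.51 FPKM in delta cells (log2 difference 2.41, adjusted p = 1.2e-05). Of 16 chloride channel and cotransporter genes, 2 were higher (1 without beta replicates 1 or 2 or delta replicates 1, 3, 4 or 5) and none was lower, or 1 and 0 with size factors, or 0 and 0 with the hormone-free scaling. Clcn5, an endosomal exchanger, was at 2.56 ± 0.9748 FPKM in beta cells and 10.2 ± 1.89 FPKM in delta cells (log2 difference 1.68, adjusted p = 8.2e-04).

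Of 59 genes of the machinery that docks and fuses secretory granules, 43 were not called, 10 were higher and 6 lower in delta cells (8 and 10 with size factors, or 6 and 5 with the hormone-free scaling). Within the 7 samples with lower ribosomal protein FPKM the counts were 21 and 4 as deposited and 9 and 10 with size factors. The fast calcium sensor of synaptic vesicles Syt1 was at 0.0858, 0.167, 0.0331 and 0.124 FPKM in beta replicates 1 to 4. Delta samples held Syt1 at 1.49 to 15.4 FPKM, with a median of 10.1 (log2 difference 2.97 ± 0.46 (SE), adjusted p = 3.6e-04). Syt5 was at 5.47 ± 3.12 FPKM in beta cells and 43.9 ± 18.8 FPKM in delta cells (log2 difference 2.83, adjusted p = 1.1e-04), and Rab3b, a granule GTPase, at 37.7 ± 24.4 FPKM in beta cells and 182 ± 34.5 FPKM in delta cells (log2 difference 2.46, adjusted p = 6.8e-04). Sytl4, which encodes granuphilin and docks insulin granules, was at 41.4, 121, 19.2 and 84.2 FPKM in beta replicates 1 to 4. Delta samples held Sytl4 at 0.101 to 1.08 FPKM, with a median of 0.760 (log2 difference -5.10 ± 0.51 (SE), adjusted p = 5.2e-06). The scaffold Pclo was at 21.7 ± 9.93 FPKM in beta cells and 3.41 ± 2.24 FPKM in delta cells (log2 difference -2.48, adjusted p = 0.0069) and the priming factor Cadps at 18.8 ± 7.69 FPKM in beta cells and 2.62 ± 0.952 FPKM in delta cells (log2 difference -2.40, adjusted p = 1.1e-04). Syt7, a high-affinity calcium sensor of insulin granules, was at 9.31 ± 2.68 FPKM in beta cells and 21.3 ± 13.2 FPKM in delta cells (log2 difference 0.78, 95% interval -0.72 to 2.29), and this gene was named after its value was seen.

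Of 16 peptide hormone receptor genes above the threshold, 9 were higher and 2 lower in delta cells (8 and 4 with size factors). A further 55 on the list did not reach it. Ghsr, the ghrelin receptor, was at 0.00638, 0.0656, 0.00926 and 0.00517 FPKM in beta replicates 1 to 4. Delta samples held Ghsr at 6.37 to 14.7 FPKM, with a median of 12.7 (log2 difference 3.60 ± 0.26 (SE), adjusted p = 1.5e-07). Avpr1a, a vasopressin receptor coupled to Gq, was at 0, 0, 0.00597 and 0.00927 FPKM in beta replicates 1 to 4. Delta samples held Avpr1a at 5.71 to 10.3 FPKM, with a median of 7.55 (log2 difference 3.09 ± 0.23 (SE), adjusted p = 1.5e-07). The oxytocin receptor Oxtr was at 0.593, 0.538, 0.7104 and 0.282 FPKM in beta replicates 1 to 4. Delta samples held Oxtr at 8.17 to 19.2 FPKM, with a median of 16.8 (log2 difference 3.31 ± 0.46 (SE), adjusted p = 1.5e-04). In these 3, no delta sample overlapped the beta samples. Ramp1, a partner of calcitonin-family receptors, was at 0.472 ± 0.562 FPKM in beta cells and 23.7 ± 19.4 FPKM in delta cells (log2 difference 3.82, adjusted p = 3.3e-04), with delta replicates 1 and 2 highest. The nociceptin receptor Oprl1 was listed at 0 FPKM in all 4 beta samples and at 4.31 ± 2.55 FPKM in delta cells (log2 difference 2.27, adjusted p = 2.7e-04). Crhr2, the urocortin receptor through which Ucn3 acts, was at 0.00663 ± 0.0133 FPKM in beta cells and 2.40 ± 1.32 FPKM in delta cells (log2 difference 1.67, adjusted p = 8.0e-04), and was named after its value was seen.

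The pair of peptide receptors lower in delta cells were those of galanin and GLP-1. Galr1 was at 4.76, 13.1, 4.25 and 6.76 FPKM in beta replicates 1 to 4. Delta samples held Galr1 at 0 to 0.244 FPKM, with a median of 0.0808 (log2 difference -2.77 ± 0.31 (SE), adjusted p = 1.6e-05). Glp1r was at 192, 250.2, 157 and 230.1 FPKM in beta replicates 1 to 4. Delta samples held Glp1r at 16.4 to 59.7 FPKM, with a median of 38.1 (log2 difference -2.44 ± 0.39 (SE), adjusted p = 4.4e-04). The GIP receptor Gipr was at 3.09 ± 1.25 FPKM in beta cells and 1.69 ± 0.846 FPKM in delta cells (log2 difference -0.61, 95% interval -1.56 to 0.35). The glucagon receptor Gcgr was at 1.66 ± 1.34 FPKM in beta cells and 0.450 ± 0.309 FPKM in delta cells (log2 difference -0.77, adjusted p = 0.12), and was called lower with size factors (log2 difference -0.93, adjusted p = 0.021). Among somatostatin receptors, Sstr1 was at 0.00391 ± 0.00782 FPKM in beta cells and 1.55 ± 0.740 FPKM in delta cells (log2 difference 1.29, adjusted p = 0.0043), and Sstr3, at 9.03 ± 1.97 FPKM in beta cells and 19.2 ± 2.60 FPKM in delta cells (log2 difference 1.02, adjusted p = 0.036), was not called with size factors (log2 difference 0.62, adjusted p = 0.25), with quantile normalization, the hormone-free scaling and rescaling to other nuclear protein-coding genes, with size factors in the 7 samples with lower ribosomal protein FPKM or without beta replicate 3 or 4 or delta replicate 1 or 5 (adjusted p = 0.0503 to 0.39). Sstr2 was at 0.0154 against 0.374 FPKM, Sstr4 at 0 against 0 FPKM and Sstr5 at 0 against 0.0363 FPKM as means of beta against delta cells, all below the threshold. The ligand gene Ghrl was at 0.0324 against 0.353 FPKM, also below it.

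Receptors for small molecules and metabolites gave 3 genes higher and 4 lower of 21 tested (3 and 6 with size factors). O3far1, the long-chain omega-3 fatty acid receptor also known as GPR120, was at 0.0142, 0.0842, 0.0154 and 0 FPKM in beta replicates 1 to 4. Delta samples held O3far1 at 16.1 to 37.4 FPKM, with a median of 21.3 (log2 difference 4.60 ± 0.41 (SE), adjusted p = 1.4e-06). The long-chain fatty acid receptor of beta cells Ffar1 was at 3.31, 3.18, 9.76 and 1.53 FPKM in beta replicates 1 to 4. Delta samples held Ffar1 at 0 to 0.966 FPKM, with a median of 0 (log2 difference -2.03 ± 0.58 (SE), adjusted p = 0.026), a call lost without beta replicate 1 or 3 or delta replicate 1 or 4, with no filter on FPKM, with the hormone-free scaling and with size factors in the 7 samples with lower ribosomal protein FPKM (adjusted p = 0.051 to 0.15). Chrm4, coupled to Gi, was at 0.373 ± 0.237 FPKM in beta cells and 6.52 ± 1.23 FPKM in delta cells (log2 difference 2.45, adjusted p = 4.5e-05), and Chrm3, coupled to Gq, at 3.70 ± 1.93 FPKM in beta cells and 0.721 ± 0.391 FPKM in delta cells (log2 difference -1.38, adjusted p = 0.0063). The adenosine receptor Adora2a was at 0.0304 ± 0.0316 FPKM in beta cells and 2.49 ± 0.947 FPKM in delta cells (log2 difference 1.71, adjusted p = 0.0073) and the purine receptor P2ry6 at 6.003 ± 2.39 FPKM in beta cells and 1.06 ± 0.846 FPKM in delta cells (log2 difference -1.79, adjusted p = 0.0015). Of 37 orphan and adhesion receptors, 14 were higher (8 without beta replicate 4, 9 without beta replicate 3) and 3 lower (10 and 3 with size factors, or 7 and 2 with the hormone-free scaling). Gpr179 was at 0.00393, 0.0631, 0.00114 and 0.247 FPKM in beta replicates 1 to 4. Delta samples held Gpr179 at 13.9 to 21.7 FPKM, with a median of 19.6 (log2 difference 4.22 ± 0.37 (SE), adjusted p = 1.3e-06). Gpr158, a related receptor, went the other way, at 27.4 ± 15.1 FPKM in beta cells and 1.99 ± 1.21 FPKM in delta cells (log2 difference -3.22, adjusted p = 6.3e-05).

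**Figure D4:**
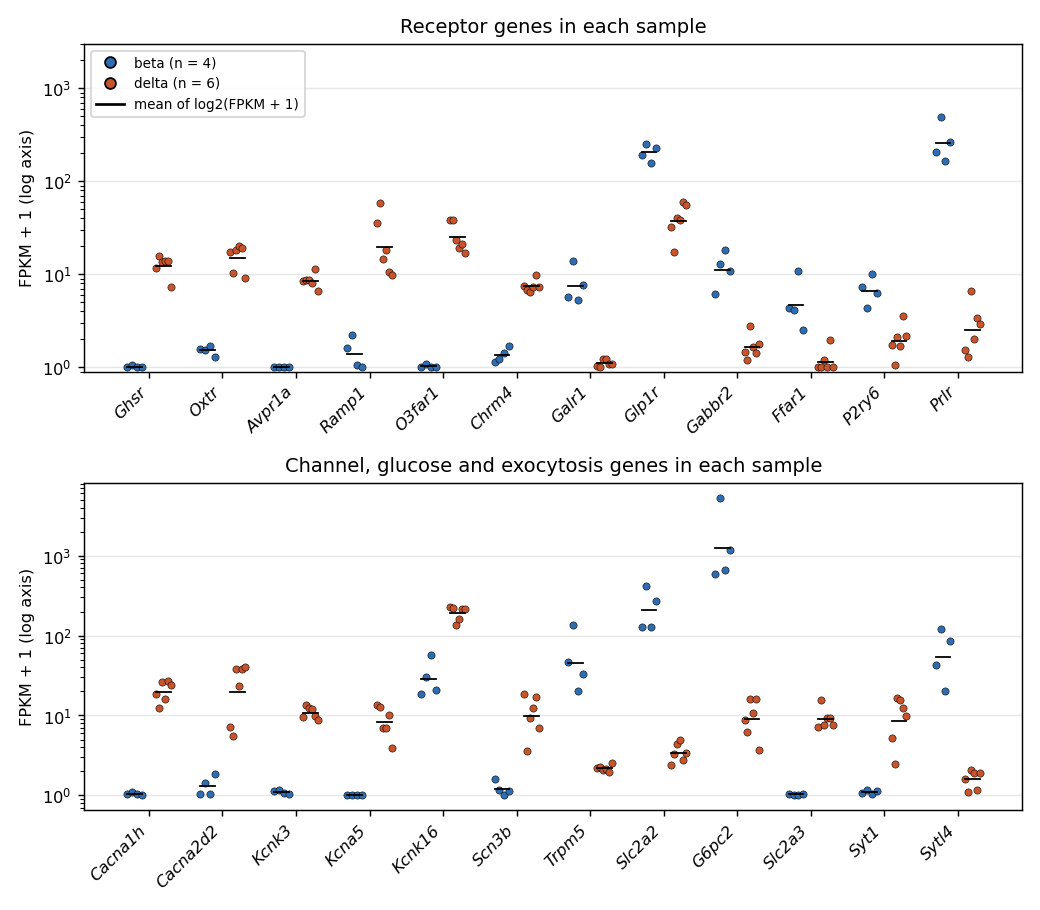
FPKM + 1 on log axes in each beta (blue, n = 4) and delta (orange, n = 6) sample, with bars at the mean of log2(FPKM + 1). The upper panel shows 12 receptor genes, of which Ghsr to Chrm4 are higher in delta cells and Galr1 to Prlr lower, and the lower panel 12 genes of channels, glucose handling and exocytosis.

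Islet cells also make GABA and monoamines. Gad1, which makes GABA from glutamate, was at 24.4, 40.8, 10.6 and 14.6 FPKM in beta replicates 1 to 4. Delta samples held Gad1 at 0 to 0.362 FPKM, with a median of 0.163 (log2 difference -4.18 ± 0.32 (SE), adjusted p = 2.3e-07), and the metabotropic GABA receptor subunit Gabbr2 was at 5.17, 12.1, 17.2 and 9.86 FPKM in beta replicates 1 to 4. Delta samples held Gabbr2 at 0.207 to 1.79 FPKM, with a median of 0.549 (log2 difference -2.76 ± 0.54 (SE), adjusted p = 0.0023). The GABAA receptor subunit Gabrg1 was listed at 0 FPKM in all 4 beta samples and at 2.16 ± 1.08 FPKM in delta cells (log2 difference 1.59, adjusted p = 0.0041). Of the 16 genes of GABA, glycine and glutamate tested, 5 were higher (3 without beta replicates 1 or 4 or delta replicates 1 or 2) and 2 lower (3 and 5 with size factors, or 2 and 2 with the hormone-free scaling). Of 12 monoamine genes, 4 were lower and 1 was higher in delta cells, also with size factors (2 higher without beta replicate 2). Ddc, the decarboxylase that makes dopamine and serotonin, was at 112, 372, 48.4 and 159.6 FPKM in beta replicates 1 to 4. Delta samples held Ddc at 1.42 to 9.20 FPKM, with a median of 5.43 (log2 difference -4.54 ± 0.50 (SE), adjusted p = 1.4e-05). Maob, which degrades dopamine, was at 56.3 ± 36.8 FPKM in beta cells and 2.56 ± 1.42 FPKM in delta cells (log2 difference -3.88, adjusted p = 1.1e-05).

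Downstream of the receptors, 6 of 37 cyclic AMP genes were higher and 3 lower in delta cells (6 and 4 with size factors, or 3 and 2 with the hormone-free scaling). Cyclic AMP genes numbered 11 higher and 1 lower within the 7 samples with lower ribosomal protein FPKM as deposited, and 7 and 4 there with size factors. The adenylate cyclases Adcy8 and Adcy2 were at 0.00638 ± 0.0103 FPKM in beta cells and 2.52 ± 0.682 FPKM in delta cells (log2 difference 1.78, adjusted p = 9.7e-05) and at 0.00818 ± 0.0164 FPKM in beta cells and 2.05 ± 0.385 FPKM in delta cells (log2 difference 1.59, adjusted p = 1.7e-04). The phosphodiesterase Pde5a, which hydrolyses cyclic GMP, was at 29.2, 38.8, 11.7 and 45.5 FPKM in beta replicates 1 to 4. Delta samples held Pde5a at 0.840 to 2.84 FPKM, with a median of 1.90 (log2 difference -3.37 ± 0.36 (SE), adjusted p = 1.1e-05). Of 37 G protein and RGS genes, 12 were higher and 3 lower (11 and 4 with size factors). G protein and RGS genes numbered 17 higher and 1 lower within the 7 samples with lower ribosomal protein FPKM as deposited, and 7 and 3 there with size factors. Gnas, the stimulatory alpha subunit, was at 242, 336, 196 and 139.8 FPKM in beta replicates 1 to 4. Delta samples held Gnas at 904 to 1339 FPKM, with a median of 1169 (log2 difference 2.38 ± 0.37 (SE), adjusted p = 4.3e-04). Its exons overlap those of the antisense gene Nespas. The beta subunit Gnb4 was at 0.634 ± 0.519 FPKM in beta cells and 8.77 ± 4.15 FPKM in delta cells (log2 difference 2.54, adjusted p = 6.3e-04), and Rgs4, which shortens Gi and Gq signals, at 4.92 ± 4.97 FPKM in beta cells and 30.5 ± 12.04 FPKM in delta cells (log2 difference 2.69, adjusted p = 0.0026). Rgs11 was lower in delta cells, at 3.87 ± 1.03 FPKM in beta cells and 0.471 ± 0.620 FPKM in delta cells (log2 difference -1.79, adjusted p = 0.0011).

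Receptors for growth factors and cytokines gave equal numbers, 6 higher and 6 lower of 29 (4 and 9 with size factors, or 2 and 5 with the hormone-free scaling). Those lower in delta cells beside Prlr included other cytokine receptors. The leukaemia inhibitory factor receptor Lifr was at 19.3 ± 10.9 FPKM in beta cells and 1.33 ± 0.798 FPKM in delta cells (log2 difference -2.97, adjusted p = 2.9e-04), the interleukin-1 receptor Il1r1 at 176 ± 122 FPKM in beta cells and 20.9 ± 7.22 FPKM in delta cells (log2 difference -2.79, adjusted p = 7.9e-04) and the ciliary neurotrophic factor receptor Cntfr at 14.9 ± 5.37 FPKM in beta cells and 1.64 ± 0.612 FPKM in delta cells (log2 difference -2.56, adjusted p = 6.2e-05). Ntrk2, the receptor of brain-derived neurotrophic factor, was at 14.1 ± 3.94 FPKM in beta cells and 3.47 ± 2.004 FPKM in delta cells (log2 difference -1.87, adjusted p = 0.0055). Gfra1, the co-receptor of glial-derived neurotrophic factor, was at 0.0200, 0, 0.0530 and 0.198 FPKM in beta replicates 1 to 4. Delta samples held Gfra1 at 5.16 to 17.2 FPKM, with a median of 12.3 (log2 difference 3.58 ± 0.36 (SE), adjusted p = 5.8e-06), higher in every delta sample. The hepatocyte growth factor receptor Met was at 2.77 ± 1.53 FPKM in beta cells and 18.0 ± 7.28 FPKM in delta cells (log2 difference 2.38, adjusted p = 0.0018).

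Of 28 genes of the TGF-beta, BMP and activin pathway, 10 were higher and 2 lower (1 without beta replicates 2 or 4), or 8 and 3 with size factors, or 5 and 1 with the hormone-free scaling. Genes of the TGF-beta list numbered 12 higher and 1 lower within the 7 samples with lower ribosomal protein FPKM as deposited, and 11 and 3 there with size factors. The ligand Bmp3 was at 0.0327, 0.263, 0.0245 and 0.0292 FPKM in beta replicates 1 to 4. Delta samples held Bmp3 at 13.1 to 38.6 FPKM, with a median of 30.5 (log2 difference 4.66 ± 0.32 (SE), adjusted p = 9.0e-08). The follistatin-like Fstl5 was at 0.125, 0.1496, 0.00664 and 0.0229 FPKM in beta replicates 1 to 4. Delta samples held Fstl5 at 13.5 to 38.7 FPKM, with a median of 29.8 (log2 difference 4.68 ± 0.30 (SE), adjusted p = 7.4e-08). Bmp6 was at 0.00304 ± 0.00351 FPKM in beta cells and 5.74 ± 2.63 FPKM in delta cells (log2 difference 2.65, adjusted p = 2.3e-05). Of 20 Wnt genes, 5 were higher and 1 was lower (3 and 2 with size factors, or 2 and 0 with the hormone-free scaling). Wnt genes numbered 9 higher and 1 lower within the 7 samples with lower ribosomal protein FPKM as deposited, and 3 and 1 there with size factors. The ligand Wnt4 was at 8.64, 11.3, 13.3 and 8.98 FPKM in beta replicates 1 to 4. Delta samples held Wnt4 at 0.269 to 1.48 FPKM, with a median of 0.453 (log2 difference -2.86 ± 0.43 (SE), adjusted p = 2.9e-04), lower in every delta sample. The secreted inhibitor Sfrp5 was at 1.90 ± 0.677 FPKM in beta cells and 19.5 ± 5.01 FPKM in delta cells (log2 difference 2.82, adjusted p = 1.9e-05). Of 13 Notch genes, 2 were higher and none lower, also with size factors. Notch genes numbered 5 higher and 0 lower within the 7 samples with lower ribosomal protein FPKM as deposited, and 3 and 0 there with size factors. The non-canonical ligand Dlk1 was at 0.154, 0, 0 and 0.0349 FPKM in beta replicates 1 to 4. Delta samples held Dlk1 at 13.3 to 45.2 FPKM, with a median of 30.9 (log2 difference 4.82 ± 0.33 (SE), adjusted p = 9.0e-08).

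Genes of neurites and cell contacts held a high share of calls toward delta cells, set against 12.5% over all genes tested. A gene with a mean below 1 FPKM in beta cells was tested only if its delta mean was above 1, so its direction was set by the filter. Below the threshold were 40 of 73 axon guidance genes, 37 of 71 of synaptic adhesion and 12 of 44 of the neuronal cytoskeleton. So were 85 of 124 cadherins, claudins, integrins and connexins, and 24568 of 38283 over all genes. Of 33 axon guidance genes, 19 were higher and 2 lower (14 and 2 with size factors, or 8 and 1 with the hormone-free scaling). The median log2 difference was 1.13 as deposited and 0.89 with size factors. The ephrin Efnb3 was at 0.0608, 0.0437, 0.149 and 0.00938 FPKM in beta replicates 1 to 4. Delta samples held Efnb3 at 23.8 to 36.9 FPKM, with a median of 28.6 (log2 difference 4.79 ± 0.34 (SE), adjusted p = 1.2e-07). The netrin receptor Unc5c was at 0.770 ± 0.509 FPKM in beta cells and 11.2 ± 3.78 FPKM in delta cells (log2 difference 2.74, adjusted p = 6.1e-05), and the semaphorin Sema3e at 0.0429 ± 0.0245 FPKM in beta cells and 4.57 ± 1.84 FPKM in delta cells (log2 difference 2.34, adjusted p = 9.5e-05). The Slit receptors Robo1 and Robo2 were lower in delta cells, at 3.78 ± 1.07 FPKM in beta cells and 0.0586 ± 0.0470 FPKM in delta cells (log2 difference -2.14, adjusted p = 7.6e-05) and at 55.7 ± 26.7 FPKM in beta cells and 12.8 ± 5.54 FPKM in delta cells (log2 difference -2.01, adjusted p = 0.010). Of 34 synaptic adhesion genes, 16 were higher and 2 lower (15 and 3 with size factors, or 9 and 2 with the hormone-free scaling). Cadm1 was at 0.263, 0.360, 0.139 and 4.19 FPKM in beta replicates 1 to 4. Delta samples held Cadm1 at 25.7 to 46.1 FPKM, with a median of 36.0 (log2 difference 4.35 ± 0.48 (SE), adjusted p = 1.4e-05). Ncam2 was at 0.270 ± 0.312 FPKM in beta cells and 22.1 ± 10.5 FPKM in delta cells (log2 difference 4.08, adjusted p = 6.4e-06) and the neurexin Nrxn2 at 0.00304 ± 0.00419 FPKM in beta cells and 4.97 ± 2.37 FPKM in delta cells (log2 difference 2.47, adjusted p = 1.4e-04). Cntn1, a contactin, went the other way, at 21.8 ± 15.3 FPKM in beta cells and 1.97 ± 1.09 FPKM in delta cells (log2 difference -2.78, adjusted p = 2.0e-04).

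Of 32 genes of the neuronal cytoskeleton, 15 were higher and none was lower in delta cells (13 and 1 with size factors, or 8 and 0 with the hormone-free scaling). The median log2 difference was 1.13, or 0.91 with size factors. Gap43, a protein of growing axons, was at 0.0952, 0, 0 and 0.0130 FPKM in beta replicates 1 to 4. Delta samples held Gap43 at 12.1 to 72.8 FPKM, with a median of 24.7 (log2 difference 4.71 ± 0.45 (SE), adjusted p = 3.2e-06). Basp1, of the same functional class, was at 0.0244 ± 0.0430 FPKM in beta cells and 13.5 ± 6.98 FPKM in delta cells (log2 difference 3.61, adjusted p = 6.3e-04). The microtubule regulator Stmn3 was at 4.97 ± 7.38 FPKM in beta cells and 45.8 ± 31.6 FPKM in delta cells (log2 difference 3.35, adjusted p = 0.0033), and the neuronal ubiquitin hydrolase Uchl1, whose exons overlap Gm16832, at 1.55 ± 1.06 FPKM in beta cells and 34.8 ± 18.3 FPKM in delta cells (log2 difference 3.74, adjusted p = 2.0e-05). Of 39 cadherins, claudins, integrins and connexins, 15 were higher and 5 lower (14 and 6 with size factors, or 9 and 5 with the hormone-free scaling). The tight junction gene Cldn6 was at 1.16 ± 1.92 FPKM in beta cells and 57.2 ± 16.3 FPKM in delta cells (log2 difference 5.05, adjusted p = 2.4e-06), and its relative Cldn9 was listed at 0 FPKM in all 4 beta samples and at 8.42 ± 2.21 FPKM in delta cells (log2 difference 3.20, adjusted p = 7.0e-07). Integrin genes led the other direction, with Itgav at 45.6 ± 19.4 FPKM in beta cells and 3.62 ± 1.72 FPKM in delta cells (log2 difference -3.32, adjusted p = 4.9e-04) and Itga6 at 12.6 ± 5.53 FPKM in beta cells and 2.07 ± 0.788 FPKM in delta cells (log2 difference -2.08, adjusted p = 0.0011). The gap junction gene Gjd2, which encodes the connexin 36 that couples beta cells, was at 44.8 ± 41.5 FPKM in beta cells and 15.1 ± 12.8 FPKM in delta cells (log2 difference -1.39, adjusted p = 0.13), called lower with size factors (log2 difference -1.78, adjusted p = 0.0093), and was named after its value was seen.

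**Figure D5:**
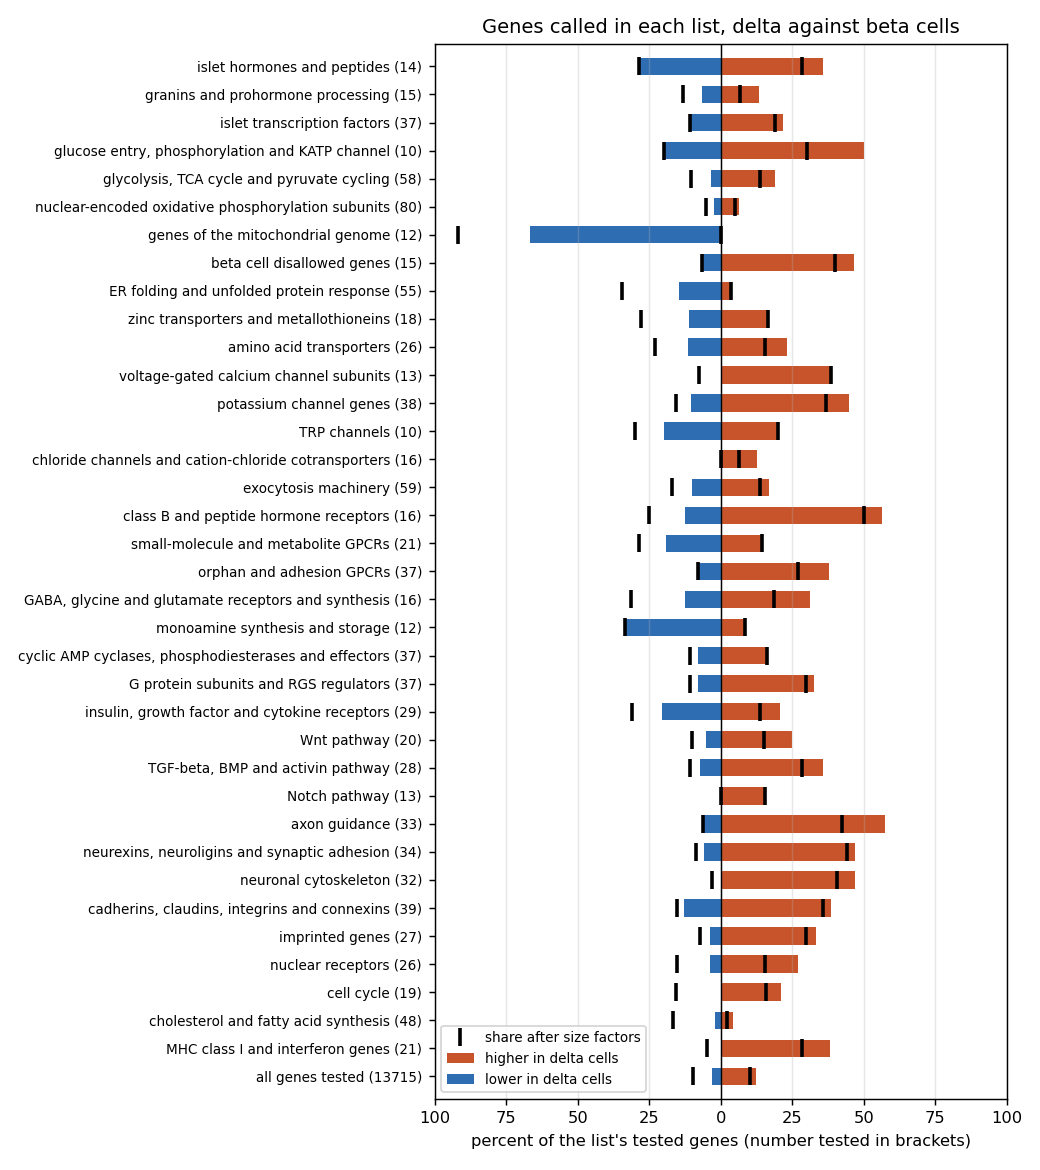
Percent of the tested genes that were higher (orange, right) or lower (blue, left) in delta cells, with black ticks at the shares after size factors and the number tested in brackets. Over all genes tested 12.5% were higher and 3.22% lower, and axon guidance and peptide hormone receptors have the longest orange bars of the 36 lists drawn, which are those with at least 10 genes tested, without the marker and quality lists.

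Of 27 imprinted genes, which are expressed from a single parental copy, 9 were higher and 1 was lower in delta cells (8 and 2 with size factors). Nnat, a small membrane protein of the endoplasmic reticulum, was at 4.79, 53.6, 6.40 and 4.32 FPKM in beta replicates 1 to 4. Delta samples held Nnat at 209 to 449 FPKM, with a median of 334 (log2 difference 4.90 ± 0.59 (SE), adjusted p = 3.7e-05). Mest was at 0.828 ± 0.635 FPKM in beta cells and 55.5 ± 28.1 FPKM in delta cells (log2 difference 4.88, adjusted p = 8.6e-05), and 23.1% of its exonic length overlaps Copg2. Sgce was at 0.0823 ± 0.165 FPKM in beta cells and 14.4 ± 8.15 FPKM in delta cells (log2 difference 3.66, adjusted p = 5.0e-05) and Ndn, a growth suppressor of neurons, at 5.34 ± 4.53 FPKM in beta cells and 30.0 ± 10.7 FPKM in delta cells (log2 difference 2.45, adjusted p = 0.0015). Of 26 nuclear receptors, 7 were higher (4 without beta replicates 1 or 4) and 1 was lower (2 without beta replicate 2, 3 without beta replicate 3), or 4 and 4 with size factors, or 0 and 1 with the hormone-free scaling. The fat cell regulator Pparg was at 2.42, 8.46, 4.12 and 6.17 FPKM in beta replicates 1 to 4. Delta samples held Pparg at 0 to 0.0572 FPKM, with a median of 0.0128 (log2 difference -2.52 ± 0.28 (SE), adjusted p = 1.4e-05), and the clock repressor Nr1d1 was at 8.43 ± 2.98 FPKM in beta cells and 38.4 ± 10.1 FPKM in delta cells (log2 difference 2.08, adjusted p = 8.6e-04).

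Of 19 cell cycle genes, 4 were higher and none lower (3 and 3 with size factors, or 2 and 0 with the hormone-free scaling), with the replication helicase subunit Mcm7 at 1.56 ± 1.09 FPKM in beta cells and 6.63 ± 2.41 FPKM in delta cells (log2 difference 1.63, adjusted p = 0.0035). Of 48 genes of cholesterol and fatty acid synthesis, 2 were higher (4 without delta replicate 2) and 1 was lower (0 without beta replicates 2 or 4 or delta replicates 1, 3, 4 or 5, 2 without beta replicate 1), against 1 and 8 with size factors, or 0 and 2 with the hormone-free scaling. Lipid synthesis genes numbered 8 higher and 2 lower within the 7 samples with lower ribosomal protein FPKM as deposited, and 2 and 10 there with size factors. Of 21 MHC class I and interferon genes, 8 were higher (4 without beta replicates 1 or 4, 5 without beta replicate 3 or delta replicates 1 or 2) and none was lower (1 without beta replicates 1 or 4), or 6 and 1 with size factors, or 4 and 1 with the hormone-free scaling. Tapbp, which loads peptides on class I molecules, was at 6.76 ± 3.78 FPKM in beta cells and 31.0 ± 6.31 FPKM in delta cells (log2 difference 2.12, adjusted p = 0.0011).

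Markers of stress and of other cells moved with the groups. Of 27 immediate early and stress genes, 11 were higher and 1 was lower in delta cells (0 without beta replicate 4, 2 without beta replicates 2 or 3), or 11 and 2 with size factors, or 5 and 0 with the hormone-free scaling, and their summed FPKM was 62.8 to 122 in beta samples and 168 to 309 in delta samples. Egr1, which is induced within minutes of stimulation, was at 4.96 ± 3.43 FPKM in beta cells and 32.5 ± 6.26 FPKM in delta cells (log2 difference 2.65, adjusted p = 0.0022), and the heat shock gene Hspb1 at 0.266 ± 0.160 FPKM in beta cells and 17.4 ± 3.76 FPKM in delta cells (log2 difference 3.85, adjusted p = 9.0e-08). Of 79 ribosomal protein genes tested, 3 were higher (23 without beta replicate 2, 17 with the hormone-free scaling) and none lower. Within the 7 samples with lower ribosomal protein FPKM 26 were higher as deposited and 7 with size factors. With size factors in all samples the counts were also 3 and 0. The part of stress in the differences above was not tested.

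The summed FPKM of 17 acinar markers was 0.0632 to 20.3 in beta samples and 94.2 to 768 in delta samples, without overlap. Of 13 tested, 4 were higher (2 without beta replicates 2, 3 or 4 or delta replicate 1, and also 2 within the 7 samples with lower ribosomal protein FPKM or with the hormone-free scaling) and none lower. Cela1, an elastase, was at 0.919 ± 1.77 FPKM in beta cells and 48.9 ± 36.4 FPKM in delta cells (log2 difference 4.71, adjusted p = 1.8e-04). The chymotrypsinogen gene Ctrb1 was at 0.775 ± 0.535 FPKM in beta cells and 75.6 ± 131 FPKM in delta cells (log2 difference 3.70, adjusted p = 0.051). Of the 17, 13 had a mean above 1 FPKM in delta cells and 2 in beta cells. Ptf1a and Amy2a5, the acinar master factor and an amylase, were listed at 0 in all delta and all beta samples. The part of acinar RNA in the differences was not tested.

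The sums of 9 duct markers were 24.6 to 86.9 in beta and 84.3 to 268 FPKM in delta samples, with 3 of 6 higher (1 without beta replicates 1, 3 or 4 or delta replicates 1, 2 or 4, or with the hormone-free scaling). Sox9, a duct and progenitor factor, was at 0.00844 ± 0.00616 FPKM in beta cells and 1.29 ± 0.746 FPKM in delta cells (log2 difference 1.11, adjusted p = 0.016). Endothelial markers summed to 0.644 to 5.48 FPKM in beta and 10.2 to 29.8 in delta samples, and Egfl7 was the gene of 2 tested that was higher (log2 difference 2.83, adjusted p = 0.0025), with 2 without beta replicate 4. Mesenchymal markers summed to 0.0972 to 0.908 and 4.96 to 13.4 FPKM. Of these, Vim alone was tested and was at 0, 0, 0.00701 and 0 FPKM in beta replicates 1 to 4. Delta samples held Vim at 3.98 to 13.1 FPKM, with a median of 7.75 (log2 difference 3.05 ± 0.74 (SE), adjusted p = 0.010). Col1a1, Col3a1 and Dcn were listed at 0 in all delta and all beta samples. Immune markers summed to 0.0277 to 2.79 and 0.174 to 10.4 FPKM, and Schwann cell and neural markers to 4.07 to 11.8 and 9.23 to 18.4 FPKM. No gene of these last groups was called (1 and 2 tested, 1 immune gene higher without delta replicate 2). Alpha cell markers overlapped, at 306 to 3004 FPKM in beta and 288 to 894 in delta samples. Ttr, the thyroid hormone carrier transthyretin, of 3 on that list tested, was lower in delta cells (log2 difference -2.30, adjusted p = 0.0081). With size factors, the counts of higher and lower genes in each of these marker lists, the acinar list included, were the same as without. The part of these cell types in the differences was not tested.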

How the data were processed

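RNA of sorted delta (n = 6) and beta cells (n = 4) was amplified and sequenced by the authors as single 50 nt reads, aligned to GRCm38 with TopHat (2.0.8 in the submitters' processing notes, another version in the methods) and deposited as FPKM from Cufflinks 2.2.1. The authors compared cell types with edgeR on counts, which were not used here. The 13715 genes with a mean above 1 FPKM in delta or beta cells were tested on log2(FPKM + 1) with limma 3.58.1 (R 4.3.3, eBayes with trend, all 15 samples in one fit, Benjamini-Hochberg, adjusted p under 0.05). On simulated data for this comparison over 13715 genes, 86 of 100 genes changed by 3 and 19 of 100 changed by 1.5 on the log2 scale were recovered, with 3 false calls. The simulated noise was independent for each gene, and only genes with higher mean levels were changed. No shift shared by the genes of a library was simulated, so the false calls do not cover errors from such shifts. The members, the 46 gene lists and the tests were chosen with earlier results of these data known. Genes named are the hormones, the 10 largest differences in each direction without sample overlap, up to 5 called per list and direction (all of a list of up to 15), 16 receptor, ligand and hormone genes fixed by name and the markers. Others are said to have been named after their values were seen, and a few genes that these rules select are not reported here. Gene models were GENCODE M21 and promoters RefSeq, GRCm38.p6. Tables and plots were made with Python 3.11.15, pandas 2.3.3 and matplotlib 3.10.9. Alternatives were other filters, a pseudocount of 0.1, other scalings, fits of fewer samples, a sample set covariate, the replicate block and leaving out each library. Settings added after seeing the data were rescaling to other nuclear protein-coding genes and size factors within the 7 samples with lower ribosomal protein FPKM.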

Additional observations from a re-analysis of the deposited data

Results flagged for a closer look

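In 31 of 320 groups of samples examined (the beta or the delta samples of a named gene or marker sum), 1 sample lay far from the others of its group on the log2 scale. The rule is set for about 1 group in 20, or 16, by chance. Genes of a library can move together and some flagged values lie near 0, so setting 31 against 16 is not a test. Of the 31, 14 were in beta replicate 2, the beta library with the highest summed ribosomal protein FPKM, and in each of them it was the highest beta sample. It held, in FPKM, Gpx3 at 18.7, Fbp1 at 0.230, Ndufa13 at 44.5, Ghsr at 0.0656, Adcy2 at 0.0327 and Bmp3 at 0.263. It also held Basp1 at 0.0885, Stmn3 at 16.0, Nnat at 53.6, Sgce at 0.329, Tapbp at 12.4, Cela1 at 3.58, Egfl7 at 3.87 and the summed immune cell markers at 2.79. All 13 genes were higher in delta cells, and only in Stmn3 did beta replicate 2 reach the range of the delta samples. Beta replicate 1 stood apart with Gap43 at 0.0952 FPKM. Beta replicate 3 stood apart with Scn9a at 2.01, Vim at 0.00701 and Sstr1 at 0.0156 FPKM. Beta replicate 4 stood apart with Unc5c at 1.53, Cadm1 at 4.19 and Crhr2 at 0.0265 FPKM. Delta replicate 2 stood apart with Slc2a3 at 14.6, Abcc8 at 38.1, Tapbp at 19.8 and the summed duct cell markers at 268 FPKM. Delta replicate 4 stood apart with Gpr179 at 13.9 FPKM. Delta replicate 5 stood apart with Cat at 3.76, Chrm4 at 8.91 and Ffar1 at 0.966 FPKM. Delta replicate 6 stood apart with Hhex at 42.1 and the summed genes of the mitochondrial genome at 7019 FPKM. The causes were not tested.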

How the results depend on the processing

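Of 2150 genes called (1709 higher and 441 lower in delta cells), a mean above 5 FPKM left 1323, of which 1016 were higher, because fewer genes were tested, and the 7 samples with lower ribosomal protein FPKM gave 3282, with 3013 higher and 269 lower. The count of lower genes was 1337 with size factors, 1413 with quantile normalization, 1080 when rescaled to other nuclear protein-coding genes, 685 with the sample set as a covariate and 1112 with size factors in those 7 samples. These scalings moved the median difference of all genes by -0.30 (size factors), -0.33 (quantile) and -0.17 (other nuclear genes). Rescaling to the FPKM left without 7 hormone genes gave 1199 calls, with 876 higher, and the cause of these moves was not tested. Leaving out each library in turn gave 1552 to 2792 calls, with 1262 to 2421 higher and 290 to 782 lower. With the replicate number as a block, 2090 genes were called (1730 higher, 360 lower), and of the genes named Kcnj11, Sstr3 and Ffar1 were not (adjusted p = 0.075, 0.093 and 0.0501). Counts in gene groups could move either way with the block. Granins and processing enzymes had 0 higher against 2 as deposited, and nuclear-encoded respiratory chain subunits had 11 against 5. Same-numbered samples came from different mouse lines and their deviations correlated at -0.088 to 0.271, so the numbers were not taken as pairs. Up to 22 alternatives were run for each named gene. Named genes without a mean above 5 FPKM in beta or delta cells were not tested with that filter. Of 152 genes named and tested, 141 were called, 120 of them the same way in every alternative run for that gene, none reversed. Rescaling without the 7 hormone genes ended 20 of these calls, 15 of which no other alternative ended, and size factors ended 2 (Kcnj11 and Sstr3). Depth, unknown in 6 of the 10 samples, limits what a value near 0 can show.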
